A study of Mus musculus with 6 samples.

Results

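The 9 genes Hnf4a, Foxa1, Foxa2, Foxa3, Cebpa, Cebpb, Onecut1, Prox1 and Nr5a2 encode transcription factors of the hepatocyte lineage. They were taken by gene symbol from the table of 15953 genes measured by RNA sequencing of mouse liver, and all 9 were found and passed the filter on low counts, among 12033 genes tested. The study compared 3 Cgref1 KO with 3 Wild Type liver samples, called livers below, all from C57BL/6 mice. It asked how loss of Cgref1 relates to hepatic gene expression. The labels call the 3 samples of each genotype biological replicates and name both liver as the tissue and hepatocytes as the cell type. The age and sex of the mice, the design of the knockout allele and the way replicates were obtained are not stated in the labels, so p-values measure the spread between these samples, which may be technical.

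Hepatocyte identity is held by a small set of factors that bind many of the same enhancers and that also bind each other's regulatory regions. HNF4A is a nuclear receptor that drives most liver-specific genes, the FOXA proteins open closed chromatin ahead of other factors, and C/EBP proteins control metabolic and acute-phase genes. ONECUT1 (also called HNF6), PROX1 and NR5A2 (also called LRH-1) act in liver development and, in the adult, in glucose, bile acid and cholesterol metabolism.

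Library totals were 17649817 to 18366443 estimated counts in Cgref1 KO livers and 17627734 to 18185837 in Wild Type livers. Cgref1 itself was near the detection limit, with 7, 12 and 10 counts in Cgref1 KO replicates 1, 2 and 3, and 7, 7 and 19 counts in Wild Type replicates 1, 2 and 3, so the genotype of a library rests on its label. Hepatocyte markers were abundant throughout: 16 genes including Alb, Ttr and Cps1 summed to 80661 to 103576 TPM (a level scaled by transcript length and library depth) in Cgref1 KO livers and to 86794 to 106546 TPM in Wild Type livers. Markers of blood, Kupffer, endothelial and stellate cells were also present, so cells other than hepatocytes contributed RNA. In such bulk samples, fewer cells of a type and less RNA per cell cannot be told apart. The intestinal genes Sis, Cdh17, Krt20 and Muc2 were at 0 counts in all 3 Cgref1 KO libraries, at 2 to 33 counts in Wild Type replicate 1, at 0 to 2 in replicate 2 and at 6 to 31 in replicate 3. These genes were chosen from a list of 14 after their values were seen, and others of the list were present in Cgref1 KO libraries. Tff3 had 10, 35 and 58 counts in Cgref1 KO and 12, 14 and 29 in Wild Type replicates 1, 2 and 3. Slc5a1 had 9, 13 and 7 counts in Cgref1 KO and 29, 5 and 30 in Wild Type.

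The factor genes differ in structure and setting, as read from the deposited table and the GRCm38 annotation (GENCODE M21). Hnf4a (gene ID 15378) spans chr2:163506809-163572907 with up to 10 exons in a transcript. Foxa1 (15375) lies at chr12:57540628-57548027, Foxa2 (15376) at chr2:148042877-148046969 and Foxa3 (15377) at chr7:19013283-19023539. Cebpa (12606) lies at chr7:35116281-35121928 and Cebpb (12608), a gene with a single exon, at chr2:167688915-167690432. Onecut1 (15379) lies at chr9:74861921-74889648, Prox1 (19130) at chr1:190116701-190170942 and Nr5a2 (26424) at chr1:136842562-136960448. The deposited table places Foxa2 and Prox1 on the plus strand, whereas the annotation places both on the minus strand. Tmem189 overlaps Cebpb on the opposite strand, antisense transcripts overlap Hnf4a, Cebpa and Prox1, and the long non-coding RNA Gm20649 overlaps Onecut1 on the same strand. The labels do not say whether reads were counted by strand, so reads from these overlaps cannot be told apart from those of the members.

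Because these factors bind each other's genes, the 250 bases before each annotated start were searched for short core motifs on both strands. Shown here 5′ to 3′ are the windows of Onecut1, Foxa2 and Foxa1, which moved together between libraries, of Prox1, which moved the other way, and of the upstream start of Hnf4a, which held 2 matches. Capitals mark motif matches. Sequences are from RefSeq (GRCm38.p6). The windows are, in order, chr9:74861671-74861920 (plus strand), chr2:148046970-148047219 (minus), chr12:57546112-57546361 (minus), chr1:190169516-190169765 (minus) and chr2:163506607-163506856 (plus).
Onecut1: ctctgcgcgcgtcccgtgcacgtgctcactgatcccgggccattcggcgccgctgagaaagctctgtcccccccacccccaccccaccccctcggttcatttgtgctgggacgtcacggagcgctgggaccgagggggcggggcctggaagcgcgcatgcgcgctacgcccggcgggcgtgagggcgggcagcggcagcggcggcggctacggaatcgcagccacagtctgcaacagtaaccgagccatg
Foxa2: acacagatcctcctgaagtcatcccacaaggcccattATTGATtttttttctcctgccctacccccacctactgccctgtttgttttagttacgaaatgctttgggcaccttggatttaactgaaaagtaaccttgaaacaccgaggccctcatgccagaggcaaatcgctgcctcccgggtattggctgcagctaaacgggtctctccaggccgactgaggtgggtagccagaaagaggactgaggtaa
Foxa1: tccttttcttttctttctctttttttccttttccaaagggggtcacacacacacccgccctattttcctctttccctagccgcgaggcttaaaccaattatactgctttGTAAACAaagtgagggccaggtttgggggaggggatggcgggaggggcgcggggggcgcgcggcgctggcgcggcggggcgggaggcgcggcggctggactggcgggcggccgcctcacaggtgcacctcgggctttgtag
Prox1: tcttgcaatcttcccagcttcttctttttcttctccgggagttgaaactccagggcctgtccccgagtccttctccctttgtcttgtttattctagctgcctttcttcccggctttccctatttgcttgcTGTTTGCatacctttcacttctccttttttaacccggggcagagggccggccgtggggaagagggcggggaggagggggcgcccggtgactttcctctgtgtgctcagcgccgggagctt
Hnf4a upstream start: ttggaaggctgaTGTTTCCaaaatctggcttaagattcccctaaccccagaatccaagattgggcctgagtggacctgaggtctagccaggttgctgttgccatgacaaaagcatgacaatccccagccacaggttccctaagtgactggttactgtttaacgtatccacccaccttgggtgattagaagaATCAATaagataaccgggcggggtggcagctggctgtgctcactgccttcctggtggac
The FOXA core TGTTTNC was in the windows of Prox1 (120 bases before the start), the upstream start of Hnf4a (238 bases) and Foxa1 (141 bases, on the reverse strand), which is 3 of the 14 windows of the 9 genes, while 17.8% of all 32851 mouse promoter windows of that length held it. The ONECUT core ATCAAT was in 2 of the 14, 213 bases before the start of Foxa2 on the reverse strand and 59 bases before the upstream Hnf4a start, and in 6.72% of all windows. The C/EBP core TTGCNNAA was in 1 window, of Nr5a2, and in 9.56% of all windows. The HNF4 core CAAAGTC and the NR5A core AAGGTCA, carried by 3.84% and 4.08% of all windows, were in none of the 14. No 2 matches overlapped, and the window of Onecut1 shown here held none of the 5. Prox1, Foxa2 and Hnf4a have further annotated starts, whose windows held no match and are not shown. A match is only a description of these letters, and none was tied to a measured change.

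Levels were compared per gene length, in TPM. Cebpa, Hnf4a and Cebpb, in this order, were the most abundant of the 9 in every one of the 6 libraries, and the other 6 were several-fold lower. For scale, the median over 13203 genes with a count in every library was 5.59 TPM, and over 1031 of those annotated as transcription factor genes it was 2.42 TPM, so all 9 had a mean above both.

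Cebpa, the C/EBP protein that restrains proliferation and supports gluconeogenesis in adult hepatocytes, had 303, 235 and 234 TPM in Cgref1 KO replicates 1, 2 and 3, and 296, 313 and 253 TPM in Wild Type replicates 1, 2 and 3. The ranges overlap, and the gene ranked at place 2 or 3 among transcription factor genes in every library. Hnf4a had 160.1, 152 and 168 TPM in Cgref1 KO livers and 149, 165 and 199.9 TPM in Wild Type livers, with the highest and the lowest value both in Wild Type. Cebpb, induced by cytokines and fasting and a driver of acute-phase genes, had 127, 115 and 164 TPM in Cgref1 KO livers and 64.5, 115 and 146 TPM in Wild Type livers. One Wild Type library, replicate 1, lay well below the other 5.

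Foxa3, the FOXA gene that dominates in adult liver, had 30.4, 42.5 and 26.9 TPM in Cgref1 KO livers and 14.2, 37.4 and 43.9 TPM in Wild Type livers. Wild Type replicate 1 was again the lowest. Foxa2, which maintains bile acid and lipid programmes, had 17.4, 16.2 and 8.41 TPM in Cgref1 KO livers and 20.7, 23.8 and 10.6 TPM in Wild Type livers. Foxa1, its close relative with shared functions in liver specification, had 8.15, 9.93 and 4.99 TPM in Cgref1 KO livers and 8.09, 12.1 and 5.60 TPM in Wild Type livers. For both, replicate 3 was the lowest library of its genotype.

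Onecut1, which acts in the developing liver and bile ducts, had 7.48, 13.6 and 1.70 TPM in Cgref1 KO livers and 9.53, 20.5 and 4.98 TPM in Wild Type livers. Replicate 3 was again the lowest and replicate 2 the highest of each genotype. Prox1, a homeobox factor needed for hepatoblast migration and a corepressor of HNF4A and NR5A2, had 11.2, 11.1 and 24.8 TPM in Cgref1 KO livers and 10.97, 13.8 and 26.5 TPM in Wild Type livers. Here replicate 3 was the highest of each genotype. Nr5a2, a nuclear receptor that regulates bile acid and cholesterol genes, had 14.7, 11.1 and 13.9 TPM in Cgref1 KO livers and 21.1, 17.04 and 15.5 TPM in Wild Type livers. The lowest Wild Type value lay just above the highest Cgref1 KO value in TPM. TMM-scaled CPM are counts scaled by library depth and a normalization factor per library (TMM), not by transcript length. In TMM-scaled CPM the 2 groups overlap, with 47.9, 39.5 and 47.3 in Cgref1 KO livers and 65.6, 51.7 and 47.0 in Wild Type livers.

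**Figure D1:**
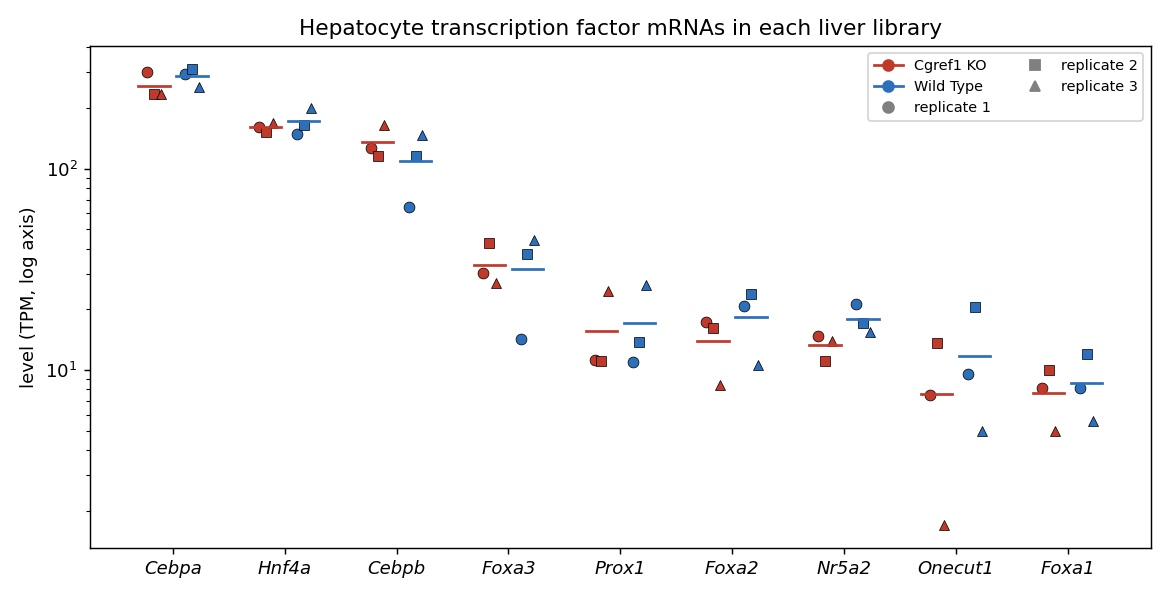
Level of the 9 transcription factor mRNAs in each library, in TPM on a log axis, with Cgref1 KO to the left of Wild Type and horizontal lines at the group means (n = 3 each). Cebpa, Hnf4a and Cebpb lie above the other 6 genes in all libraries, and replicate 3 (triangles) is low for Onecut1, Foxa1 and Foxa2 and high for Prox1.

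In the order of mean TPM, several neighbours were not separated. The log2 ratio of Cebpa over Hnf4a was 0.71 ± 0.27 (SD, n = 6), and the 2 ranges did not overlap. Cebpb exceeded Foxa3 by 1.94 ± 0.43 on the log2 scale, also without overlap. Hnf4a exceeded Cebpb by 0.49 ± 0.39 and Foxa3 exceeded Prox1 by 1.01 ± 0.71, each in 6 of 6 libraries but with overlapping ranges. Below these, Prox1, Foxa2, Nr5a2, Onecut1 and Foxa1 changed places between libraries: Prox1 was above Foxa2 in 2 of 6 and Foxa2 above Nr5a2 in 3 of 6. Of the members, Onecut1 moved furthest in its rank among all genes of a library, between 3327 and 9303, against 605 to 791 for Hnf4a.

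No member differed between the genotypes beyond the spread of the libraries. By the quasi-likelihood test of edgeR, adjusted over 12033 genes by the Benjamini-Hochberg method, 0 of 9 passed an adjusted p of 0.05, at a background of 0.00831% of all genes (1 gene, Gm14434, named after its values were seen). None of the 9 had an unadjusted p under 0.05, against 5.15% of all genes, none was called by DESeq2, against 0.233%, and none had CPM ranges that did not overlap between genotypes, against 10.8%. Of the 9 log2 fold changes, 4 were positive and 5 negative, with a median of -0.02 (-0.00 over all genes tested). Leaving out both libraries numbered 3 left the members' count at 0, with 1 gene called over all genes. Without Wild Type replicates 1 and 3 only 1 Wild Type library remains, so only effect sizes are given for that fit. The log2 fold change was then -1.29 for Onecut1, -0.64 for Foxa2, -0.51 for Foxa1 and 0.33 for Prox1. It was -0.028 for Foxa3, 0.37 for Cebpb and -0.22 for Nr5a2.

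How much the data could have shown differed between the genes. For Hnf4a the log2 fold change, Cgref1 KO over Wild Type, was 0.04 with a 95% interval of -0.22 to 0.30 (SE 0.12, n = 3 each, adjusted p = 0.994). For Cebpa it was -0.03, with an interval of -0.31 to 0.25 (SE 0.12, adjusted p = 0.994). These are the narrowest intervals of the 9 and allow a fold of 0.86 to 1.23 for Hnf4a and of 0.81 to 1.19 for Cebpa. For Onecut1 the change was -0.47 with an interval of -2.81 to 1.87 (SE 0.89, adjusted p = 0.992), which is a fold of 0.14 to 3.66. Without Cgref1 KO replicate 3, its lowest library, the change was 0.0077.

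The factors with the smallest p-values were Nr5a2 and Cebpb. Nr5a2 had a log2 fold change of -0.29 (interval -0.59 to 0.02, SE 0.14, adjusted p = 0.968 by edgeR's quasi-likelihood test). Cebpb had 0.46 (interval -0.27 to 1.19, SE 0.30, adjusted p = 0.984 by the same test). Without Wild Type replicate 1, the library where Cebpb was lowest and Nr5a2 highest, the values were 0.19 for Cebpb and -0.14 for Nr5a2. The authors' deposited table gives a p of 0.0547 for Cebpb and 0.0734 for Nr5a2, with a q-value of 0.999 for all 9. Tmem189, whose transcript overlaps Cebpb, had a log2 fold change of -0.01 (SE 0.15, adjusted p = 0.995) and lay between 11.7 and 16.4 CPM in Cgref1 KO livers and between 13.4 and 15.2 CPM in Wild Type livers.

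The other 4 members had wide intervals. Foxa3 had 0.21 (interval -0.96 to 1.39), Foxa2 -0.26 (-1.26 to 0.74) and Foxa1 -0.02 (-0.90 to 0.86). Prox1 had 0.01 (-1.29 to 1.31), and its sign, like that of Hnf4a, turned negative when library totals replaced the TMM scaling. Adjusted p lay between 0.989 and 0.999 for these 4 genes by edgeR's quasi-likelihood test. The median width of the interval was 1.76 for the 9 members and 0.70 over all genes tested.

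**Figure D2:**
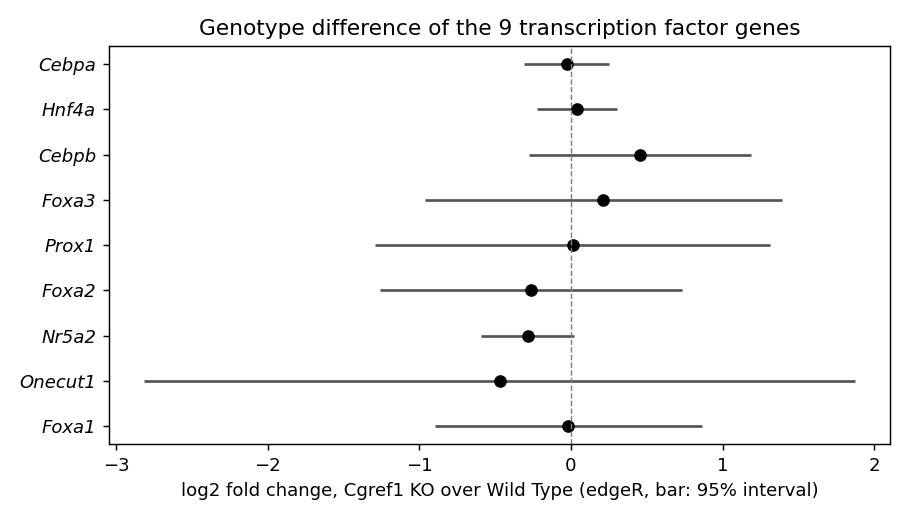
Log2 fold change of each gene, Cgref1 KO over Wild Type, with its 95% interval from the edgeR fit over 12033 genes (n = 3 each), in order of mean TPM from the top. Every interval includes 0, and those of Cebpa and Hnf4a are much narrower than that of Onecut1, which runs from -2.81 to 1.87.

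For each of the 9 genes the larger part of the variation lay within the genotypes. The SD of log2(CPM + 0.5) over the 6 libraries was 1.15 for Onecut1, 0.61 for Foxa3, 0.58 for Prox1, 0.54 for Foxa2, 0.49 for Cebpb and 0.47 for Foxa1. It was 0.24 for Nr5a2, 0.15 for Cebpa and 0.13 for Hnf4a. The median over all genes tested was 0.18 and over 939 transcription factor genes tested 0.21, so 7 of the 9 varied more than the median gene and Hnf4a and Cebpa, the most abundant, varied less. Onecut1 lay at the 99.8th percentile of all genes tested and Hnf4a at the 28.4th.

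Counting error was smaller than these spreads. Onecut1, with a mean of 213 counts, had a CV of 68.1% where counting alone gives 9.22%, and Prox1 had 43.8% against 2.69%. Genotype took 0.00158% of the sum of squares of log2 CPM for Prox1, 0.012% for Foxa1 and 0.965% for Cebpa. The share was 33% for Cebpb and 40.2% for Nr5a2, and the median over all genes was 12.3%. The number of members above the median gene was 6 without Wild Type replicate 1, 6 without both libraries numbered 3 and 8 without Wild Type replicates 1 and 3. Without the libraries numbered 3, the SD of Prox1 was 0.12, of Foxa2 0.17 and of Foxa1 0.27, while that of Foxa3 was 0.74 and of Onecut1 0.60. Without Wild Type replicate 1 alone, the SD of Foxa3 was 0.29 and of Cebpb 0.24.

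**Figure D3:**
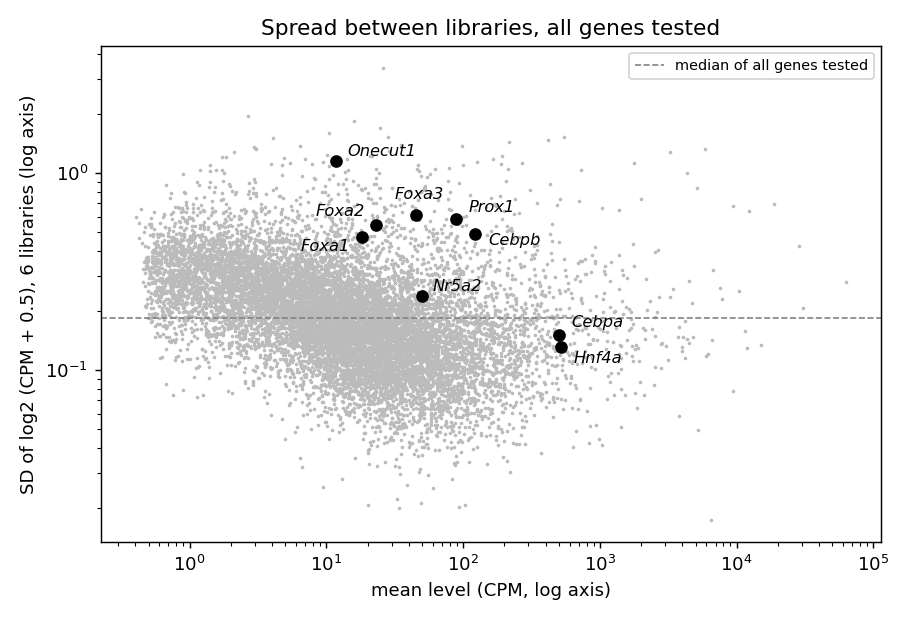
SD of log2(CPM + 0.5) over the 6 libraries against mean CPM, both on log axes, for all 12033 genes tested (grey) with the 9 transcription factor genes in black and the median of all genes, 0.18, as a dashed line. Onecut1 lies highest at 1.15, and only Cebpa and Hnf4a of the 9 lie below the line.

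For most members, the libraries numbered 3 lay at one end of both genotypes. Replicate 3 of both genotypes held the lowest Onecut1, Foxa1, Foxa2 and Cebpa and the highest Prox1, Hnf4a and Cebpb. Foxa3 and Nr5a2 did not share this. Prox1 was at 140 CPM in Cgref1 KO replicate 3 and 60.4 and 66.02 CPM in the other Cgref1 KO libraries, and at 136 CPM in Wild Type replicate 3 and 58.0 and 70.0 CPM in the other Wild Type libraries. Onecut1 was at 2.20 CPM in Cgref1 KO replicate 3, against 9.27 and 18.3 CPM in replicates 1 and 2, and at 5.78 CPM in Wild Type replicate 3, against 11.4 and 23.9 CPM. Nothing in the labels says that equal numbers mark a shared day, litter or batch.

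Of 32 other liver regulators, 7 were highest and 4 lowest in replicate 3 of both genotypes, against 16.3% and 16.1% of all genes tested, and among the 9 members 3 were highest and 4 lowest there. Bcl6, a repressor that sets growth hormone dependent and fasting programmes, was at 71.2 CPM in Cgref1 KO replicate 3 and 6.65 and 9.94 CPM in the other Cgref1 KO libraries. It was at 60.9 CPM in Wild Type replicate 3 and 6.24 and 14.9 CPM in the other Wild Type libraries. Hhex, a homeobox factor of early liver bud formation, was lowest in replicate 3 of each genotype, at 31.6 CPM in Cgref1 KO and 51.2 CPM in Wild Type. Tat, a glucocorticoid-inducible tyrosine-degrading enzyme, was at 1702 CPM in Cgref1 KO replicate 3 against 885 and 873 CPM in replicates 1 and 2, and at 1578 CPM in Wild Type replicate 3 against 631 and 557 CPM. Bcl6 and Tat were chosen after their values were seen, and no cause of the pattern was tested.

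Of the genes with a mean of at least 10 CPM (7164), those with the profile most like Onecut1 over the 6 libraries were Slc25a30, Hhex and Rgs3, with root mean square differences of centred log2 CPM of 0.35, 0.40 and 0.43. The nearest members were Foxa2 at 0.63 and Foxa1 at 0.66, and the furthest was Prox1 at 1.501. For Foxa3 the closest genes were Slc6a9 (0.23), Marveld1 (0.24) and Efhd2 (0.25), each lowest in Wild Type replicate 1, and the nearest member was Cebpb at 0.39. Both lists are descriptions over 6 libraries that share their depth and scaling.

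**Figure D4:**
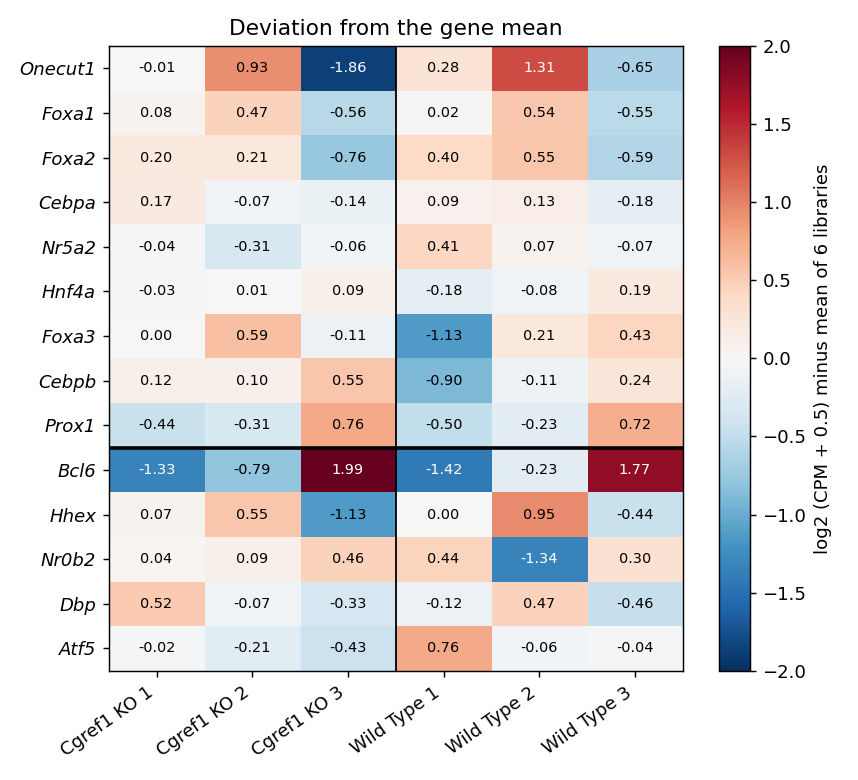
Deviation of each gene from its own mean over the 6 libraries, in log2(CPM + 0.5), for the 9 members (above the line) and the 5 most variable of the other liver regulators (below it), with Cgref1 KO libraries on the left. Onecut1 is at -1.86 and Prox1 at 0.76 in Cgref1 KO replicate 3, with the same signs in Wild Type replicate 3 (-0.65 and 0.72), and Foxa3 is at -1.13 in Wild Type replicate 1.

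Within the FOXA family, Foxa3 made up 54.4%, 61.9% and 66.8% of the summed TPM in Cgref1 KO livers and 33.0%, 51.1% and 73.1% in Wild Type livers. Foxa2 made up 31.0%, 23.6% and 20.9% in Cgref1 KO livers and 48.2%, 32.4% and 17.6% in Wild Type livers. The whole Cgref1 KO range lay inside the Wild Type range for both. Foxa1 stayed close to Foxa2, at a ratio of 0.559 ± 0.078 in Cgref1 KO livers and 0.476 ± 0.074 in Wild Type livers (SD, n = 3 each).

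Within the C/EBP family, Cebpa made up 65.8%, 61.9% and 55.1% of the summed TPM in Cgref1 KO livers and 76.8%, 68.1% and 58.0% in Wild Type livers. The ratio of Cebpb to Cebpa was 0.535 ± 0.146 in Cgref1 KO livers and 0.388 ± 0.182 in Wild Type livers (SD, n = 3 each), with overlapping ranges. Cebpd, an acute-phase relative, was at 5.46, 6.62 and 8.40 TPM in Cgref1 KO livers and 2.35, 7.31 and 11.7 TPM in Wild Type livers, and shared its low value in Wild Type replicate 1 with Cebpb. Cebpe lay between 6.32 and 10.8 TPM and Cebpg, a partner without an activation domain, between 12.1 and 17.6 TPM over all libraries.

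The paralogs of the other members were low or steady. Onecut2 was at 6.18, 8.14 and 6.32 TPM in Cgref1 KO livers and 7.41, 8.40 and 7.33 TPM in Wild Type livers, an SD of log2 CPM of 0.19 against 1.15 for Onecut1. Onecut1 thus made up 21.2% of the summed Onecut1 and Onecut2 TPM in Cgref1 KO replicate 3 and 70.9% in Wild Type replicate 2. Prox2 did not exceed 0.70 TPM in any library. Hnf4g, a relative expressed in gut, had at most 4 counts and Nr5a1, of steroidogenic tissue, at most 1 count in a library.

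**Figure D5:**
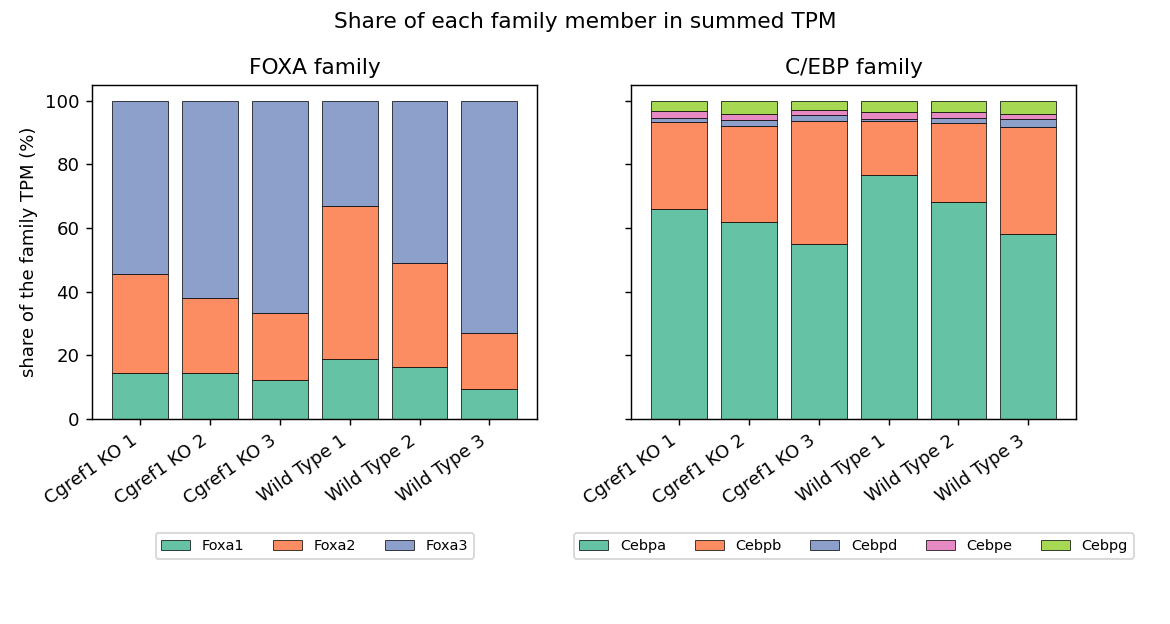
Share of each gene in the summed TPM of the FOXA family (left) and the C/EBP family (right), as stacked bars per library with Cgref1 KO libraries first. Foxa3 runs from 33.0% in Wild Type replicate 1 to 73.1% in Wild Type replicate 3, and Cebpa from 55.1% in Cgref1 KO replicate 3 to 76.8% in Wild Type replicate 1.

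The wider regulator network was described with a list of 33 further liver-enriched regulators, of which 32 were tested. Of these 23 had a positive and 9 a negative log2 fold change, the median was 0.12 (-0.00 over all genes), 0 were called by edgeR and 4 had an unadjusted p under 0.05, against 5.15% of all genes. Creb3l3, a fasting-induced membrane-bound factor, was at 309, 313 and 303 CPM in Cgref1 KO livers and 225, 272 and 245 CPM in Wild Type livers (log2 fold change 0.32, SE 0.10, adjusted p = 0.856, edgeR). Nr1h4, the bile acid receptor FXR, was at 139, 133 and 127 CPM in Cgref1 KO livers and 148, 149 and 179 CPM in Wild Type livers (-0.25, SE 0.10, adjusted p = 0.935, edgeR). Xbp1, of the unfolded protein response, was among the most abundant of the list and had 0.08 (SE 0.15). Without Wild Type replicate 1 the median of the list was 0.02.

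Genes known as targets of the members were listed by factor, and lists share genes. No target passed the edgeR threshold in the fit without a replicate block. Of 21 HNF4A targets, 11 were positive and 10 negative with a median log2 fold change of 0.04, and 4 had an unadjusted p under 0.05 (5.15% of all genes did), among them the apolipoprotein genes Apoa4 (0.72, SE 0.18, adjusted p = 0.754) and Apoc2 (-0.46, SE 0.13, adjusted p = 0.85), by edgeR's quasi-likelihood test. The abundant targets Apoa2 and Fabp1 had -0.15 (SE 0.16) and -0.13 (SE 0.12). Of 10 FOXA targets, 6 were positive and 4 negative, with a median of 0.06. That median was 0.47 without Wild Type replicate 3, 0.25 by limma-voom and -0.017 with library totals, a scaling that put the median of all genes at -0.084. Alb had -0.20 (SE 0.19), Trf 0.09 (SE 0.11) and Igfbp1 1.21 (SE 0.63), and Afp 1.10 (SE 0.33) at under 2 CPM. Of 9 NR5A2 targets, 6 were positive and 3 negative with a median of 0.11, which was 0.013 without Cgref1 KO replicate 1. Scarb1, the HDL receptor, was at 172, 151 and 172 CPM in Cgref1 KO livers and 121, 142 and 129 CPM in Wild Type livers (0.34, SE 0.10, adjusted p = 0.85, edgeR). Cyp8b1 had 0.55 (SE 0.37) and Slc10a1 -0.23 (SE 0.15).

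Of 14 C/EBP targets, 9 were positive and 5 negative, with a median of 0.34, and 6 had an unadjusted p under 0.05 (5.15% of all genes did). Lcn2, an acute-phase iron-binding protein, was at 5.60, 5.29 and 8.48 CPM in Cgref1 KO livers and 1.99, 2.98 and 3.87 CPM in Wild Type livers (1.13, SE 0.28, adjusted p = 0.739, edgeR). Hamp, which encodes hepcidin, was at 475, 354 and 332 CPM in Cgref1 KO livers and 517, 714 and 644 CPM in Wild Type livers (-0.69, SE 0.16, adjusted p = 0.739, edgeR). Without Cgref1 KO replicate 3 the median of the list was 0.09, and without Wild Type replicate 3 it was 0.53. Hamp was called by DESeq2, with an adjusted p of 0.0199. Lcn2 was called by edgeR with the replicate number as a block (adjusted p = 0.0492), a block that was not adopted. Of 7 ONECUT1 targets, 4 were positive and 3 negative, with a median of 0.04. G6pc, the last enzyme of glucose release, was at 83.1, 191 and 297 CPM in Cgref1 KO livers and 75.3, 54.7 and 449 CPM in Wild Type livers, highest in replicate 3 of each genotype.

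Several members are also expressed by other cells of liver or gut, so markers of those cells were set beside them. Cebpb is expressed in macrophages: all 10 Kupffer cell markers had positive log2 fold changes (median 0.31), 6 with an unadjusted p under 0.05 and 0 called, against 5.15% of all genes below that p. They summed to 342, 343 and 335 TPM in Cgref1 KO livers and 282, 321 and 334 TPM in Wild Type livers. On log2(TPM + 1) their median log2 fold change was 0.14, where the median of all genes was -0.11. Clec4f had 0.37 (SE 0.09), Csf1r 0.40 (SE 0.10), C1qb 0.28 (SE 0.10) and C1qc 0.26 (SE 0.11). The part of these cells in the Cebpb values was not tested. Prox1 marks lymphatic endothelium: the 7 markers of that list summed to 20.05, 15.6 and 16.9 TPM in Cgref1 KO livers and 14.05, 18.9 and 24.7 TPM in Wild Type livers, highest in replicate 1 of Cgref1 KO and in replicate 3 of Wild Type. Ccl21a was at 5.82, 2.16 and 1.66 TPM in Cgref1 KO replicates 1, 2 and 3, which raised the sum of replicate 1. Taken singly, Lyve1, Flt4 and Pdpn were highest in replicate 3 of both genotypes, while Reln, Mmrn1, Ccl21a and Nts were not. Prox1 was highest in replicate 3 of both genotypes, and the part of lymphatic endothelial cells in its values was not tested. Onecut1, Foxa1 and Foxa2 are also expressed in bile duct cells, whose 10 markers summed to 37.5, 38.8 and 34.8 TPM in Cgref1 KO livers and 30.6, 39.8 and 35.05 TPM in Wild Type livers, lowest in replicate 3 of Cgref1 KO and in replicate 1 of Wild Type, and their part in these genes was not tested. Of fetal liver genes 2 of 8 were abundant enough to test, Afp and Gpc3 (-0.06, SE 0.51).

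The remaining marker lists held no called gene either. Endothelial markers had 6 positive and 4 negative values with a median of 0.05. Stellate cell markers had 2 positive and 8 negative values with a median of -0.21. The most abundant stellate markers were Dcn (-0.31, SE 0.13) and Rgs5 (-0.08, SE 0.11), and Reln (-0.28, SE 0.11) had the smallest unadjusted p of that list. Of 7 tested blood and immune markers 2 were positive and 5 negative (median -0.18), and of 6 tested intestinal markers 3 were positive and 3 negative (median -0.19), the highest being Fabp2 and Apoa4, which hepatocytes also express. Pancreatic acinar genes, 2 of which were tested, were both positive (median 0.49), with Cela1 at 0.23 (SE 0.19). Hepatocyte markers were evenly split, 8 positive and 8 negative, with a median of 0.01. On log2(TPM + 1), where the median of all genes was -0.11, the median was -0.0064 for the liver regulators, -0.085 for HNF4A targets, -0.026 for NR5A2 targets and -0.13 for hepatocyte markers. Without Wild Type replicates 1 and 3 the median was -0.011 for the liver regulators, -0.055 for NR5A2 targets, 0.45 for FOXA targets, 0.047 for stellate cell markers and 0.42 for intestinal markers.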

How the data were processed

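Total RNA from 6 mouse liver samples was enriched for messenger RNA and sequenced, per the labels' protocols. HISAT, Bowtie2, RSEM and DESeq2 are named in the submitters' processing notes, with no versions or settings. For every gene in a library the authors deposited an expected count, an FPKM value and a TPM value; they also gave a log2 fold change with a p-value and q-value between the groups, per the file headers. The table's chromosomes are those of GRCm38. A further 15 columns of group means or single-library comparisons were not used.

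Expected counts were rounded to whole numbers, filtered with edgeR's filterByExpr (minimum count 10) and tested by edgeR's robust quasi-likelihood method (edgeR 4.0.16 under R 4.3.3) on TMM-scaled libraries (factors 0.955 to 1.05), with no replicate block and Benjamini-Hochberg adjustment over 12033 genes, threshold 0.05. The fit's biological coefficient of variation came to 15.8%. Depth was 17627734 to 18366443 counts a library, which limits precision mainly for genes with few counts. For the members, counting error was smaller than the spread between libraries. CPM is per TMM-scaled total. Levels between genes were compared in TPM. Steps were tested on simulated data. The authors' fold changes and p-values are used only where their deposited table is named.

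The 9 members and all gene lists were chosen with earlier results of these data known, so counts are descriptions. The text names all members and paralogs, in each list the 2 genes with the smallest p and the 2 with the highest TPM (for marker lists the latter), and the 3 genes most like each of the 2 most variable members; others were chosen after their values were seen. Values of a few genes that fall under this rule are not reported here. Alternatives were other scalings, DESeq2 1.42.0, a filter at a mean of 5 CPM or none, limma 3.58.1 (voom, or trend on log2 of TPM with a pseudocount of 1 or 0.1, or of FPKM with 1), a replicate block, removal of haemoglobin and Mup genes, and libraries left out. Leaving out both libraries numbered 3, and all alternatives for the number of members above the median spread, were added after seeing the data.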

Additional observations from a re-analysis of the deposited data

How the results depend on the processing

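The number of members called was 0 under every alternative run that kept replicates in both genotypes. Without Wild Type replicates 1 and 3 only 1 Wild Type library remains, so that run gives effect sizes only. Over all genes, 1 was called as reported, 0 with a mean of at least 5 CPM and 28 by DESeq2. With the replicate number as a block the number was 34. With 1 library left out it was 1 to 5, 5 being without Cgref1 KO replicate 1. Among the listed genes 0 were called as reported, 1 by DESeq2 (Hamp) and 1 with the replicate block (Lcn2, adjusted p = 0.0492). Deviations of same-numbered samples correlated at 0.27, 0.055 and 0.33 over 12033 genes. Every library correlated best with its own number, a hint from the data and not from the design. The rule for a block required each of these correlations to pass a set floor. The value of 0.055 did not, so the block was not adopted.

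With TPM the median of all genes moved to -0.11 (pseudocount 1) or -0.13 (0.1), and member signs are to be read against that. Hnf4a was -0.043, -0.086, -0.087 and -0.034 and Prox1 -0.069, -0.12, -0.13 and -0.068 with library totals, TPM + 1, TPM + 0.1 and FPKM + 1. Prox1 was -0.026 without both libraries numbered 3, and Foxa3 was -0.028 without Wild Type replicates 1 and 3. With 1 library left out, the log2 fold change ranged from -0.042 to 0.15 for Hnf4a, -0.29 to 0.30 for Foxa1, -0.55 to 0.00035 for Foxa2, -0.14 to 0.50 for Foxa3, -0.13 to 0.038 for Cebpa, -1.26 to 0.21 for Onecut1, -0.48 to 0.47 for Prox1, 0.19 to 0.72 for Cebpb and -0.39 to -0.14 for Nr5a2; the last 2 kept their sign.

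The median SD of the members, 0.49, was 0.29 to 0.54 with 1 library left out, lowest without Wild Type replicate 1, 0.31 without Wild Type replicates 1 and 3 and 0.27 without both libraries numbered 3; the all-gene median was then 0.17. The causes were not tested. With 3 libraries per genotype, intervals were widest for Onecut1, Prox1 and the FOXA genes.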
